A study of Rattus norvegicus with 6 samples.

Results

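The genes described here encode 10 inhibitors that act on the RAS to ERK kinase relay: the Sproutys Spry1, Spry2 and Spry4, the Spreds Spred1, Spred2 and Spred3, and the dual-specificity phosphatases Dusp4, Dusp5, Dusp6 and Dusp7. They were chosen by name, by a rule that uses no measured value but was written with earlier results of these data known, and all 10 were found among the 23091 genes of the deposited table, each on a single gene identifier. Messenger RNA came from 6 samples of wild-type rat marrow mesenchymal stem cells, adherent stromal cells of bone marrow, held for 7 days in medium for neural differentiation. In 3 of them, the controls called CK, the medium held DMSO, the usual solvent for small molecules. In the other 3 it held CYSP, whose composition is not stated. The series set out to follow transcription during neuronal conversion of these cells. Nothing in the labels tells whether replicates were separate cultures or animals, and the p-values therefore describe the scatter of these samples only, possibly a technical one.

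Growth factor receptors pass their signal through RAS, RAF and MEK to the ERK kinases, which enter the nucleus and switch on transcription. Among the genes that ERK activity induces are its own brakes. Sprouty and Spred proteins sit at the membrane and act on the steps around RAS and RAF, with Spreds bringing the RAS inactivator neurofibromin to the membrane. The dual-specificity phosphatases remove the activating phosphates from ERK itself, Dusp4 and Dusp5 in the nucleus, Dusp6 and Dusp7 in the cytoplasm. Because ERK induces several of these genes, their transcripts are often read as a gauge of recent ERK activity, and in neural cells they set how strongly fibroblast growth factors and neurotrophins act. In the deposited gene annotation, 7 of the 10 carried the process term for negative regulation of the ERK cascade, and the 4 phosphatases stood in the MAPK signaling pathway.

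Promoter sequence from RefSeq (build GRCr8) was matched by symbol to 9 of the 10 genes, Dusp4 being the other, as windows of 250 bases before to 50 bases after a transcription start. The stretches shown belong to the Sproutys that moved in opposite directions, to Spred3, the Spred with the largest rise, and to Dusp5, which did not pass the test and was the one member with CArG boxes. Each is written 5′ to 3′ on the strand of its gene, with motif matches in capitals. For Spry2, at the first of its 2 starts, and Dusp5 all 250 bases before the start are given. The windows of Spry1 and Spred3 lie inside the annotated span of the gene, and only 30 bases around the GC box are given for them.
Spry1, chr2:122485272-122485301, plus strand: tatcaccggGGGCGGgtcccggcgtggagg
Spry2, chr15:89111927-89112176, minus strand: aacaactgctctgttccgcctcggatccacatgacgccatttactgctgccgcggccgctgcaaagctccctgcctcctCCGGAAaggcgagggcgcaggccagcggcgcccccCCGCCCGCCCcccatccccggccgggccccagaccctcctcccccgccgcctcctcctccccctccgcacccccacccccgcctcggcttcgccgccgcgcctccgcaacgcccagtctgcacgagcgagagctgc
Spred3, chr1:93597263-93597292, minus strand: tcccccaagCCGCCCcctcccccacacgcg
Dusp5, chr1:262543524-262543773, plus strand: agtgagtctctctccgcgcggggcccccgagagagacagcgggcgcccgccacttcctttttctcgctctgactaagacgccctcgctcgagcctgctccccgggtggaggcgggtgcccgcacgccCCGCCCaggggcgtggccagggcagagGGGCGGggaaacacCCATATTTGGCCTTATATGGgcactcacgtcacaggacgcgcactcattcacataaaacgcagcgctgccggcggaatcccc

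The capitals mark the GC box GGGCGG, the ETS core CCGGAA and the CArG box, the element bound by serum response factor, searched on both strands of the 300-base windows. The GC box stood in 8 of the 9 members and in 33.1% of the 33465 promoter windows of the table. The ETS core stood in Spry2, Spry4 and Dusp5, and in 14.9% of all windows. In Dusp5 it lay at bases 5 to 10 counted from the start, outside the stretch shown. Dusp5 held a pair of CArG boxes side by side, CCATATTTGG and CCTTATATGG, between 82 and 63 bases before the start. No other member held a CArG box, which 1.64% of all windows contain. The AP-1 site TGANTCA was found in no member and in 7.33% of all windows, and the cAMP response element TGACGTCA in no member and in 1.83%. The TEAD site CATTCC stood, outside the stretch shown, in Spred3 alone and in 14.2% of all windows. Members were counted at their first start, while the shares of all windows take in every start. The window at the second start of Spry2 held none of the motifs searched. GC boxes in Spry2 and Dusp7 overlapped each other, and no match says only that the letters are absent from these windows.

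Sample totals lay between 15060933 and 17244700 counts. Levels of a gene are given as CPM, its counts relative to the sample total after TMM scaling. A count of 0 allows up to 3 counts, or 0.174 to 0.199 CPM when taken over the sample total before TMM scaling. All 10 genes passed the filter on low counts, and Dusp4 was the thinnest, with 14 to 68 counts per sample. Of 8 stromal markers, 4 rose (Thy1, Eng, Nt5e, Cxcl12), 3 fell (Pdgfrb, Col1a1, Vcam1) and Lepr did not pass. In the test described below, that is 87.5% called, beside 76.1% of all tested genes. The summed level of the 8 stromal markers went from between 41390 and 43230 to between 10610 and 11460 CPM, nearly all of it Col1a1, a collagen gene. The summed level of 8 neuronal markers went from between 14.5 and 15.1 to between 86.5 and 91 CPM, with Snap25 and Tubb3 rising, Map2 and Dcx falling and the mature-neuron marker Rbfox3 at 0 in all samples. Of 8 macrophage markers, 7 were lower in CYSP and Cd14 did not pass. That is again 87.5% called, beside 76.1% of all tested genes, of which 37.8% were called lower. The summed level of the 8 macrophage markers went from between 852 and 969.6 CPM in CK to between 394.2 and 395.9 CPM in CYSP. None of the 8 was at 0 in all samples. Cx3cr1, a receptor of tissue macrophages, had 281 counts over CK and 0 over CYSP, at least 85.7-fold lower against 3 counts over the group. The part of these marker changes in the values of the ERK brakes was not tested. Endothelial markers summed to at most 2.25 CPM and glial markers to at most 2.54 CPM in a sample. Since these are bulk samples, fewer cells of a type and less RNA per cell cannot be told apart.

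Of the 10 ERK brakes, 4 were higher in CYSP (Spry1, Spred2, Spred3, Dusp4), 2 were lower (Spry2, Dusp7) and 4 did not pass the test (Spry4, Spred1, Dusp5, Dusp6). Genes were called at a Benjamini-Hochberg adjusted p under 0.05 in the quasi-likelihood test of edgeR, over 12623 genes. It called 76.1% of those genes, 38.2% higher and 37.8% lower, so a share of 60% among the members lay below the background. The groups did not overlap in those 6 genes, against 77% of all tested genes. Where a change of at least 2-fold in either direction was also asked for, 3 members were higher (Spry1, Spred3, Dusp4) and none was lower, where 27.8% of all tested genes were called. The median log2 fold change of the members was 0.19, beside 0.0046 for all tested genes. With an assumed coefficient of variation of 0.2 between replicates, 3 members were higher and 1 lower while 46.8% of all genes were called, and with 0.4 the members' counts were 3 and 0 against 21.4%. The members differed widely among themselves, from a 36.7-fold rise of Spry1 to a 1.74-fold fall of Spry2.

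**Figure D1:**
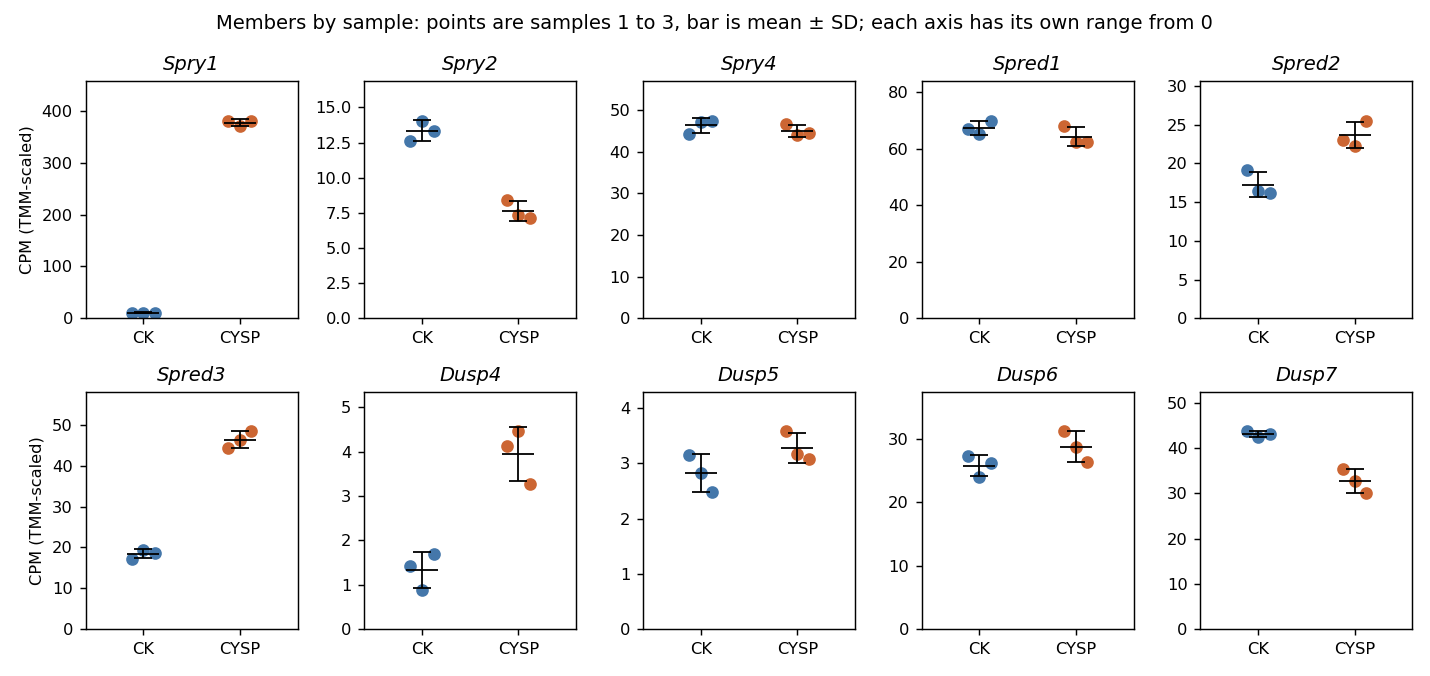
TMM-scaled CPM of the 10 genes in each sample (points), with mean ± SD per group of 3 samples; each panel has its own axis from 0. Spry1 goes from about 10 to between 370.2 and 382 CPM, Spred2, Spred3 and Dusp4 lie higher in every CYSP sample, Spry2 and Dusp7 lie lower, and the groups overlap in Spry4, Spred1, Dusp5 and Dusp6.

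Sprouty proteins are cytoplasmic adaptors that, once phosphorylated on a conserved tyrosine, interfere with the coupling of receptors to RAS. Spry1 had 10.9, 9.17 and 10.7 CPM in CK samples 1, 2 and 3, and 381, 370.2 and 382 CPM in CYSP samples 1, 2 and 3. Every treated sample thus stood far above every control sample, with almost no spread inside a group. Its log2 fold change was 5.2 (SE 0.052, edgeR adjusted p = 3.32e-78), and only 2.38% of the tested genes had a larger absolute change. By size of the increase Spry1 ranked 198 among the 12623 genes. Over the 19 alternative analyses its log2 fold change lay between 4.7 and 5.24 and passed the threshold in each.

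Spry2, which acts downstream of fibroblast growth factor and epidermal growth factor receptors, moved the other way. It had 12.6, 14.1 and 13.3 CPM in CK and 8.44, 7.37 and 7.1 CPM in CYSP. All treated samples lay below all controls, and the difference (log2 fold change -0.8, SE 0.13, edgeR adjusted p = 4.83e-08) was several times its error, though small beside that of Spry1. Spry4, which also restrains RAS activation, had 44.3, 47.1 and 47.5 CPM in CK and 46.7, 44.1 and 44.4 CPM in CYSP. Its groups overlapped, and the 95% interval of its log2 fold change ran from -0.16 to 0.084 (edgeR adjusted p = 0.583). Spry3, not one of the 10, had 81 counts over CK and 96 over CYSP and did not pass the test (log2 fold change 0.38, edgeR adjusted p = 0.262).

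The make-up of the Sprouty family therefore differed between the groups. Levels of different genes were compared as deposited FPKM, which allow for transcript length. Spry1 made up 17.1, 13.7 and 15% of the summed FPKM of Spry1, Spry2 and Spry4 in CK samples 1, 2 and 3, and 88.4, 89.1 and 89.3% in the CYSP samples. Spry4, the main Sprouty in CK with 53.2 ± 0.663% (mean ± SD, n = 3), held 8.21 ± 0.196% in CYSP, and Spry2 went from 31.6 ± 1.57% to 2.85 ± 0.279%. An exact two-sided permutation test over samples gave p = 0.1 for each of these 3 shares, the smallest value that 3 samples against 3 allow, and 0.111 after adjustment over 10 shares. The summed FPKM of the family rose from between 17.94 and 19.34 in CK to between 109.6 and 112.6 in CYSP, a difference carried by Spry1.

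**Figure D2:**
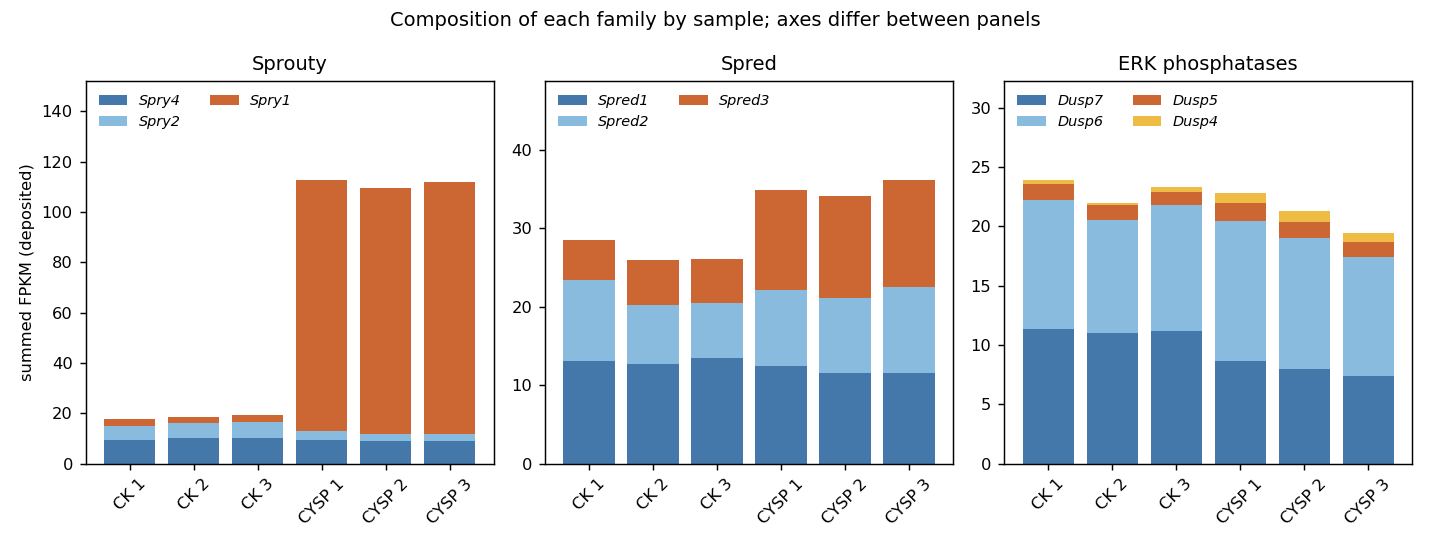
Deposited FPKM of each gene stacked by family for the 6 samples, with a separate axis from 0 in each panel. The Sprouty bars go from at most 19.34 FPKM in CK to at least 109.6 in CYSP through Spry1, the Spred bars grow through Spred3, and the phosphatase bars stay between 19.4 and 23.9 FPKM.

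Spreds share the cysteine-rich Sprouty domain and add an EVH1 domain, through which they bind neurofibromin. Spred3, the member without a working KIT-binding domain, had 17.3, 19.3 and 18.7 CPM in CK and 44.4, 46.3 and 48.5 CPM in CYSP. The treated samples lay clear of the controls (log2 fold change 1.33, SE 0.076, edgeR adjusted p = 3.63e-27), a 2.52-fold rise. Spred2 had 19.2, 16.5 and 16.2 CPM in CK and 23.1, 22.3 and 25.5 CPM in CYSP. The groups did not overlap but stood close, CK 1 being nearest to the treated samples, and the rise was 1.37-fold (log2 fold change 0.45, SE 0.094, edgeR adjusted p = 1.52e-05). Spred1, whose loss of function causes a RASopathy called Legius syndrome, had 66.9, 65.3 and 70.1 CPM in CK and 68.1, 62.4 and 62.5 CPM in CYSP. These overlapped (log2 fold change -0.066, 95% interval -0.17 to 0.039, edgeR adjusted p = 0.26).

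The Spred2 call depended on the scale used. On log2(FPKM + 1) and log2(FPKM + 0.1) with limma its adjusted p was 0.056 and 0.058, and the deposited FPKM of CK 1, at 10.3, stood among the CYSP values of 9.58 to 11. The ratio of counts to FPKM, which follows the transcript length used for a gene, was 15.9% lower for Spred2 in CK 1 than its median over the samples, whereas for the other members it varied by at most 7.04%. On FPKM, Spred1 became a call, with log2 fold changes of -0.14 and -0.15 (limma adjusted p = 0.048 and 0.048), as it did when counts were scaled by library size only (-0.15, edgeR adjusted p = 0.00975).

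Within the Spred family Spred3 went from 20.6 ± 2.22% to 37.4 ± 0.905% of the summed FPKM and Spred1 from 48.9 ± 3.01% to 33.8 ± 1.92%, each without overlap (exact permutation p = 0.1, 0.111 after adjustment). Spred2 held 30.5 ± 4.99% and 28.8 ± 1.43% (exact permutation p = 0.8). In CYSP Spred3 stood just above Spred1, at 13.1 ± 0.466 and 11.8 ± 0.54 FPKM, while in CK Spred1 stood at 13.1 ± 0.371 and Spred3 at 5.5 ± 0.313 FPKM.

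Of the nuclear phosphatases, Dusp4 rose from a low level. It had 1.41, 0.879 and 1.69 CPM in CK and 4.13, 4.46 and 3.28 CPM in CYSP, with every treated sample above every control (2.96-fold, log2 fold change 1.57, SE 0.27, edgeR adjusted p = 3.55e-07). On the log2(FPKM + 1) scale, which shrinks changes of low genes, its difference was 0.52. Dusp5, which holds ERK in the nucleus as well as dephosphorylating it, had 3.16, 2.83 and 2.48 CPM in CK and 3.58, 3.18 and 3.07 CPM in CYSP. The groups overlapped, and with 41 to 59 counts per sample the interval of the log2 fold change was wide, from -0.24 to 0.68 (edgeR adjusted p = 0.404).

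Of the cytoplasmic phosphatases, Dusp7 fell and Dusp6 did not pass. Dusp7 had 43.7, 42.5 and 43.2 CPM in CK and 35.5, 32.6 and 30.1 CPM in CYSP, with no overlap (log2 fold change -0.4, SE 0.069, edgeR adjusted p = 3.88e-07). Dusp6, the phosphatase gene most often used as a gauge of ERK activity, had 27.3, 23.9 and 26.1 CPM in CK and 31.2, 28.8 and 26.4 CPM in CYSP. Only CYSP 3 fell within the CK range, and the log2 fold change of 0.16 (SE 0.081) missed the threshold with an edgeR adjusted p of 0.0648. Without CK replicate 1 it was 0.2 (edgeR adjusted p = 0.0426), without CYSP replicate 3 it was 0.22 (edgeR adjusted p = 0.0223), and among genes with at least 50 counts in 3 samples the adjusted p was 0.0442. The groups' means, 25.8 ± 1.69 and 28.8 ± 2.4 CPM, lay close in size.

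**Figure D3:**
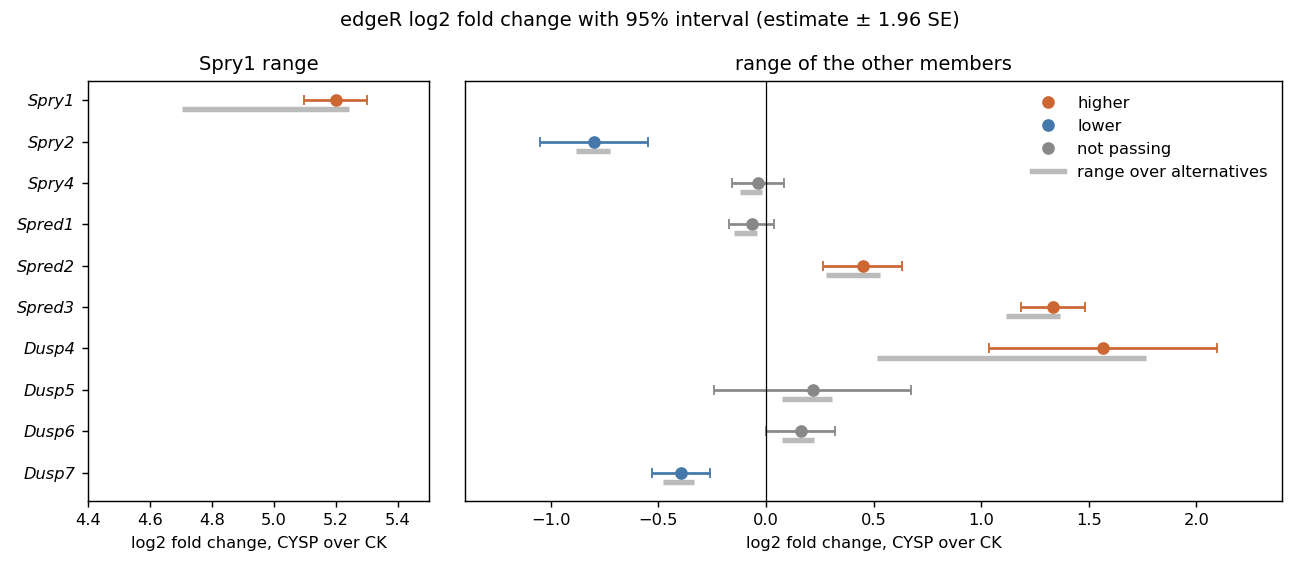
edgeR log2 fold change of CYSP over CK for each gene with its 95% interval, and below each the range over the alternative analyses (grey); the left panel has the range needed for Spry1 and the right panel that of the other 9 genes. Spry1 stands at 5.2, Dusp4, Spred3 and Spred2 lie above 0, Spry2 and Dusp7 below it, and the grey bar of Dusp4 reaches down to 0.52 through the log2(FPKM + 1) scale.

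The phosphatases as a group kept nearly the same summed FPKM, 23.9, 22 and 23.3 in CK and 22.9, 21.3 and 19.4 in CYSP. Dusp6 and Dusp7 supplied most of it in both. Dusp6 went from 44.8 ± 1.28% to 51.7 ± 0.0973% of the sum and Dusp7 from 48.6 ± 1.43% to 37.8 ± 0.219%, while Dusp4 never exceeded 4.64% (exact permutation p = 0.1 for all 4 shares, 0.111 after adjustment). Shares of one sum are not independent. In FPKM, Dusp7 went from 11.2 ± 0.145 to 8.02 ± 0.629 and Dusp6 only from 10.3 ± 0.707 to 11 ± 0.905.

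Ordered by FPKM in CK, Spred1 led at 13.1 ± 0.371, followed by Dusp7 (11.2 ± 0.145), Dusp6 (10.3 ± 0.707), Spry4 (9.93 ± 0.346), Spred2 (8.24 ± 1.82), Spry2 (5.9 ± 0.499), Spred3 (5.5 ± 0.313), Spry1 (2.84 ± 0.254), Dusp5 (1.22 ± 0.148) and Dusp4 (0.311 ± 0.0965). The neighbours Dusp6 and Spry4, Spry4 and Spred2, and Spry2 and Spred3 overlapped between samples. In CYSP, Spry1 led at 99 ± 1.17 FPKM, far above Spred3 at 13.1 ± 0.466, and Dusp5 and Dusp4 again came last at 1.34 ± 0.104 and 0.875 ± 0.135. There Spred1 overlapped with Dusp6 and Dusp6 with Spred2. Summed over all 10 genes, FPKM went from between 66.7 and 70.4 in CK to between 165 and 170.3 in CYSP. Without Spry1 the sums were 67.32, 64.15 and 65.76 in CK and 70.77, 67.35 and 67.49 in CYSP. The highest control sum and the lowest treated sum of these 9 genes thus nearly met.

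In the authors' deposited table the same 6 members had an adjusted p under 0.05, and all 10 had the same sign as here. The log2 fold changes of the authors' deposited table are ratios of mean FPKM, and those given here were higher by 0.072 to 0.154. Deposited FPKM were used here as they stand, without TMM scaling. Scaling counts by library size only, in place of TMM, moved the median log2 fold change of all tested genes by -0.083. The part of scaling in the offset of the members was not tested. The genes closest to Spry1 in pattern, by Euclidean distance of centred log2 CPM over the 6 samples, were Serinc2 (distance 0.175, log2 fold change 5.27), Add3 (0.183, 5.14) and Gda (0.189, 5.06). Those closest to Spry2 were Ubald2 (0.0514, -0.79), Arf5 (0.0794, -0.77) and Cep250 (0.0897, -0.85).

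Growth factors upstream of the relay changed strongly and in both directions. Among the 17 tested of 25 ligand genes, 9 went up, 7 went down and 1 missed the threshold, with a median log2 fold change of 0.76. That is 94.1% called, beside 76.1% of all tested genes. The epidermal growth factor family member Ereg had 2 counts over CK and 349 over CYSP, a ratio of 191 (95% Clopper-Pearson interval 52.4 to 1582, counting error only), and Fgf9, a fibroblast growth factor, rose by a log2 fold change of 4.78 from 7 counts over CK. Fgf1 fell from 56.8 ± 2.72 to 0.171 ± 0.149 CPM and Nrg1, a ligand of ERBB receptors, from 49.2 ± 1.4 to 2.13 ± 0.746 CPM. Fgf10 and Fgf7, ligands of the FGFR2 splice form of epithelia, were chosen after their values were seen: Fgf10 rose from 19.5 ± 1.19 to 204.6 ± 5.01 CPM and Fgf7 from 91.3 ± 1.74 to 170.2 ± 7.28 CPM.

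Among the 18 tested of 22 receptor kinase genes, 7 were higher, 8 lower and 3 neither (median log2 fold change 0.012). The share called was 83.3%, beside 76.1% of all tested genes. Of the neurotrophin receptors, Ntrk2 rose from 1.95 ± 0.352 to 5.18 ± 0.508 CPM, and Ntrk3 had 249 counts over CK and 0 over CYSP, at least 75.9-fold lower. Flt1, a receptor for vascular endothelial growth factor, fell by 3.07 on the log2 scale. Among receptors present at higher levels, picked after their values were seen, Pdgfra rose from 243 ± 20.1 to 605 ± 7.93 CPM and Pdgfrb fell from 624 ± 17.1 to 269 ± 9.38 CPM. Fgfr1, whose symbol stands on more than 1 gene identifier so that its reads may be split, rose by 0.45 (SE 0.041).

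Genes of the relay itself changed by smaller amounts. Of 20 tested genes between receptor and ERK, 9 rose, 6 fell and 5 did not pass, 75% called beside 76.1% of all genes, with a median absolute log2 fold change of 0.303 against 0.532 for all tested genes. The largest rises were those of the scaffold Ksr1, from 5.72 ± 0.195 to 22.1 ± 0.858 CPM, and of the fibroblast growth factor receptor adaptor Frs3, at 1.51 (SE 0.25). Its better expressed relative Frs2 fell from 106 ± 2.12 to 68 ± 1.47 CPM and the docking protein Gab1 from 26.8 ± 2.76 to 14.8 ± 1.23 CPM. Given here for their place in the relay, the MEK gene Map2k1 rose by 0.5 (SE 0.043), Map2k2 fell by 0.2 (SE 0.063) and the ERK1 gene Mapk3 rose by 0.61 (SE 0.045). Mapk3 also stands on more than 1 identifier.

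Of 14 other brakes on RAS and ERK tested, 7 rose and 7 fell, 100% called beside 76.1% of all tested genes. On both FPKM scales with limma the counts were 4 higher and 7 lower. For Il17rd, a membrane protein that restrains fibroblast growth factor signalling, the level rose to 10.6 ± 0.578 CPM from 3.57 ± 0.55. Errfi1, an inhibitor of the epidermal growth factor receptor, rose from 36.4 ± 4.44 to 88.8 ± 4.36 CPM. Genes of 2 RAS GTPase-activating proteins fell, Rasal2 from 82.6 ± 0.559 to 24.5 ± 2.97 CPM and Rasa3 from 80.8 ± 0.703 to 33.3 ± 2.75 CPM. Nf1, the neurofibromin that Spreds recruit, rose by only 0.12 (SE 0.049, edgeR adjusted p = 0.0272). In FPKM its groups overlapped, at 8.35 ± 0.136 in CK and 8.54 ± 0.164 in CYSP. Of 10 genes for proteins that bind or modify Sproutys and Spreds, 8 fell and 1 rose, 90% called beside 76.1% of all tested genes. Nedd4 and Ppp2ca, both among the 8, stand on more than 1 gene identifier, so that their reads may be split. Most changes of the 10 genes were small, with a median absolute log2 fold change of 0.433 against 0.532 for all tested genes. With an assumed coefficient of variation of 0.2 between replicates, 3 were lower and 1 higher, and with 0.4 the counts were 0 and 0. Siah2, a ubiquitin ligase that acts on Sproutys, fell by 1.07 (SE 0.15) on the log2 scale and Tesk1, a kinase that binds them, by 0.95 (SE 0.11), while Mknk1, whose kinase phosphorylates Spry2, rose by 1.14 (SE 0.06).

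Among the remaining MAP kinase phosphatases and Spry3, 2 of 7 rose, 2 fell and 3 did not pass. This was 57.1% called, beside 76.1% of all tested genes. Dusp1, an immediate early phosphatase of p38, JNK and ERK, rose from 9.61 ± 0.643 to 15.4 ± 1.62 CPM, and Dusp8, which acts on JNK and p38, fell from 11.1 ± 1.48 to 2.09 ± 0.555 CPM. The other two, both under a mean of 1 CPM and named after their values were seen, were Dusp9, with 5 counts over CK and 80 over CYSP, and Dusp2, with 63 and 8. Of 13 tested genes of the p38, JNK and ERK5 relays 5 rose, 2 fell and 6 did not pass (53.8% called). Mapk10, the JNK gene of neurons, rose by 4.93 from 6 counts over CK, and Mapk13, a p38 gene, by 1.78 (SE 0.38). The decreases of Map2k7 and Mapk9 were of 0.37 and 0.15 on the log2 scale. Without CYSP replicate 1 the count of decreases was 1.

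**Figure D4:**
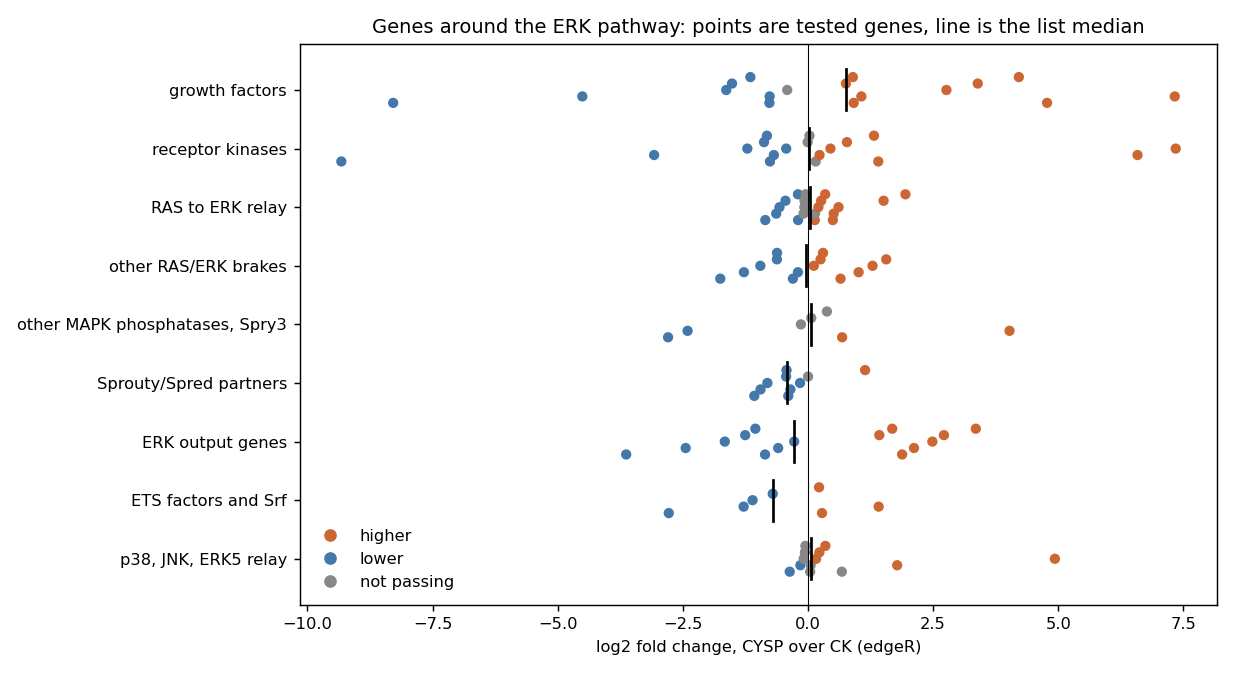
edgeR log2 fold change of CYSP over CK for each tested gene of 9 lists around the ERK pathway, with the list median as a black line. Growth factors, receptor kinases and ERK output genes spread over many log2 units on both sides of 0, while the RAS to ERK relay stays within 2 units; several of the largest values rest on a group with under 10 counts.

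Genes that ERK signalling commonly induces, other than the 10 brakes, also divided. All 15 tested passed the threshold, 7 higher and 8 lower, beside 76.1% of all tested genes. Their median absolute log2 fold change was 1.68, against 0.532 for all tested genes. Ccnd1, cyclin D1, rose from 5.23 ± 0.212 to 53.5 ± 2 CPM and Fosl1, an AP-1 subunit, from 14.6 ± 2.04 to 95.9 ± 3.74 CPM. The early growth response factor Egr2 fell from 11.7 ± 1.1 to 0.935 ± 0.0499 CPM, and Egr3 from 4.42 ± 0.705 to 0.798 ± 0.399 CPM. The ETS factors Etv4 and Etv5, which accompany Sprouty expression at sites of fibroblast growth factor signalling, moved apart. On the log2 scale Etv4 rose by 2.48 (SE 0.16) and Etv5 fell by 1.66 (SE 0.071). Etv1, an ETS factor of the same list, rose by 2.12 (SE 0.085). Of 7 genes for other ETS factors and Srf, 3 rose and 4 fell (100% called). Ets2 rose by 1.41 (SE 0.06) and Elk3 by 0.28 (SE 0.046), Ets1 fell from 147 ± 3.32 to 21.3 ± 2.25 CPM, and Erf, an ETS repressor that ERK exports from the nucleus, fell by 1.29 (SE 0.087). Srf, the factor that binds CArG boxes, fell from 77.1 ± 0.9 to 35.8 ± 1.91 CPM.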

How the data were processed

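Total RNA extracted with Trizol was enriched on oligo(dT) beads, per the labels' protocols. The submitters' processing notes name fastp 0.18.0, HISAT2, StringTie 1.3.1 and RSEM, without roles. Counter, genome build, strand setting and the authors' test: not given in the sources used here. Per the file headers, the deposited table holds raw counts and FPKM of each sample. It also holds the authors' log2 fold change, p-value and adjusted p-value.

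Counts were tested with edgeR 4.0.16 in R 4.3.3 (filterByExpr, TMM, glmQLFit and glmQLFTest, robust), with adjustment over 12623 genes. The SE is the absolute log2 fold change over the root of F, and 95% intervals are ± 1.96 SE. The members and gene lists were chosen with earlier results of these data known. Named are all members and, per list, up to 2 genes in each direction of largest change that passed the threshold and averaged 1 CPM or more. Any other name was chosen by role or after its values were seen. Of 2 listed genes no row was found, and they are not analysed here. Some listed genes are not reported here. Alternatives were other scalings, DESeq2 1.42.0, limma 3.58.1 (voom, and trend on FPKM with a mean of at least 0.5), other count filters, glmTreat, assumed coefficients of variation, a replicate block and each sample left out. Replicates of a group differed by more than sampling noise. On simulated counts with 200 changed genes (12486 fitted) edgeR recovered 46% of the changes of 1.2-fold and 82% of those of 1.5-fold, rising to 90% at 2-fold and 96% at 4-fold. In the data 76.1% of the tested genes were called, far more than changed in the simulation. These rates therefore do not measure recovery in the data. Same-numbered samples did not deviate together (correlations -0.000633, 0.0185 and -0.00885).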

Additional observations from a re-analysis of the deposited data

How the results depend on the processing

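Of 188 values of single members under the alternatives, 172 stayed on their side of the threshold, 10 lost their call, 6 gained one and none reversed. The estimated coefficient of variation was small (0.0393 in common), and most lost calls came from tests that ask for more. Against a log2 fold change of 1 with glmTreat, 3 members were higher and 0 lower, with 21.6% of all genes called, 1504 higher and 1217 lower. With an assumed coefficient of 0.2, 3 members were higher and 1 (Spry2) lower, with 46.8% of all genes called, 3102 higher and 2801 lower. With 0.4, 3 were higher and 0 lower, with 21.4% called, 1496 higher and 1209 lower. Spry1, Spred3 and Dusp4 passed in all 3 of these. Over the genes of the 9 pathway lists, glmTreat gave 24 higher and 18 lower, and 0.4 gave 24 and 15. Of 288 counts of single lists under the other alternatives, 12 moved by over 1.5 times. On both FPKM scales these were the other phosphatases (1 higher, 1 lower), the other brakes (4 higher) and the p38, JNK and ERK5 genes (3 higher), with the stricter filter the other phosphatases (1 and 1) and the p38, JNK and ERK5 genes (3 higher), and without CYSP replicate 1 the latter (1 lower). As a share of summed CPM in place of FPKM, the difference between groups was -17.3 points for Spry2, -55.8 for Spry4, 3.93 for Dusp4 and, reversed, 0.828 for Spred2. With single samples left out the Spred2 difference ran from -3.59 points (without CK replicate 3) to 1.15, reversed (without CK replicate 1). With the replicate block, 4773 genes were higher and 4712 lower, and 4 members were higher and 2 lower, so it changed no member's call. The stricter filter left out Dusp4 and Dusp5. Depth limits Dusp4 and Dusp5 most.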
